A study of Danio rerio with 10 samples.

Results

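In livers of 5 dpf zebrafish larvae carrying the nAtf6 transgene, 53 genes were held far below their level in the livers of non-transgenic siblings. A gene was taken when it reached at least 10 CPM (the count of a gene divided by the total of its library and multiplied by 1000000) in each of 3 sibling liver pools, and when its highest level among 3 nAtf6 TG pools was at most 0.4 of its lowest level among the siblings. Of the 32105 genes counted, 5397 met the first limit, and 56 of these (1.04%) met both. adh8a, cetp and hpxa were left out, and the other 53 genes (0.982% of the 5397) are described here. The genes were selected on their CPM in the 6 libraries of 5 dpf, so their difference between nAtf6 TG and sibling livers at 5 dpf is given as a description, without a test. The levels at 78 hpf, earlier in larval life, were not used for the choice.

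The hepatocyte secretes most plasma proteins, including lipoproteins, protease inhibitors and carriers of hormones, through its endoplasmic reticulum (ER). It also breaks down amino acids and nucleosides, and it oxidizes, hydrolyses and conjugates drugs, steroids and dietary compounds. Atf6 is a sensor of protein folding in the ER. Its cytosolic part is released when unfolded proteins accumulate, enters the nucleus and activates genes for chaperones and other ER proteins, and nAtf6 is this nuclear part expressed on its own.

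At 5 dpf, 3 pools of 25 livers were nAtf6 TG, carrying allele C of Tg(fabp10:nAtf6-cherry; cmlc2:GFP), while 3 pools of 25 livers were from siblings, labelled WT. Carriers had been outcrossed to WT TAB 14, and GFP in the heart, which marks the transgene, separated the larvae. These pools came from 3 clutches on different days, and ribosomal RNA was depleted before library preparation. The description of the whole series instead gives, for both ages, the cross to Tg(fabp10a:CAAX-EGFP) that marks the liver green. At 78 hpf, 4 pools of 20 livers came from that cross, with green livers in all groups, in 2 clutches and with polyA selection. The fabp10 promoter drives the transgene in hepatocytes only, and C is a single transgenic allele, so all libraries with nAtf6 share 1 insertion line. The 78 hpf libraries carry contradictory labels. Those deposited under the name nAtf6 are titled as siblings, those deposited under the name SIBS are titled as transgenics, all 4 share 1 genotype entry, and the sorting protocol sides with the deposited names. They are therefore called here libraries named nAtf6 (titled sibling) and libraries named SIBS (titled transgenic), with the clutch number of their titles.

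The gene counted as atf6 (ENSDARG00000012656) had 447, 559 and 552 CPM in the 3 nAtf6 TG libraries of 5 dpf, against 101, 73.4 and 86.1 CPM in the siblings. At 78 hpf it had 189 and 326 CPM in the libraries named nAtf6 (titled sibling) and 80.8 and 48.5 CPM in those named SIBS (titled transgenic), so its level followed the deposited names and went against the titles. The transgene contains atf6 coding sequence, and counts from it and from the endogenous gene cannot be told apart. Counts on genes were 17622825 to 22963880 per library at 5 dpf and 4868321 to 6354867 at 78 hpf. Summed markers of hepatocytes (19 genes) were between 42410 and 165700 CPM in the 10 libraries, and no marker of this list was at 0 in all 5 dpf libraries. In bulk tissue, fewer cells of a type and less RNA per cell cannot be told apart. The 3 libraries of a 5 dpf group came from separate pools, and p-values measure the spread between such pools. That spread was uneven. The chi-square per degree of freedom between nAtf6 TG libraries 2 and 3 was 2.70. For library 1 against libraries 2 and 3 it was 48.5 and 53.4. Between sibling libraries 1 and 3 it was 11.6, and for library 2 against libraries 1 and 3 it was 73.4 and 77.8. In each group 1 library thus stood apart, and the p-values at 5 dpf do not rest on 3 evenly spread pools.

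Summed, the 53 genes made up 0.368%, 0.228% and 0.223% of all counts in nAtf6 TG libraries, against 1.63%, 1.80% and 1.72% in the siblings. The ratio of the sibling mean to the nAtf6 TG mean ran from 3.08 for FOXA2 to 38.6 for apcs, with a median of 7.09 over the 53 genes. 48 of them have a symbol, of which 10 are clone names, and 5 have none. The symbols in capitals are those of the human gene, as the name table gives them, and do not say which zebrafish paralog was counted. By what is known of their products, 10 are secreted proteins, 8 are esterases, cytochrome P450 enzymes or conjugating enzymes, 5 act in the breakdown of amino acids and nucleosides, 4 in the metabolism of lipid, acetate, glycogen and inositol, 4 are channels, transporters or receptors, and 7 are other named genes. This grouping was made after the names were seen.

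**Figure D1:**
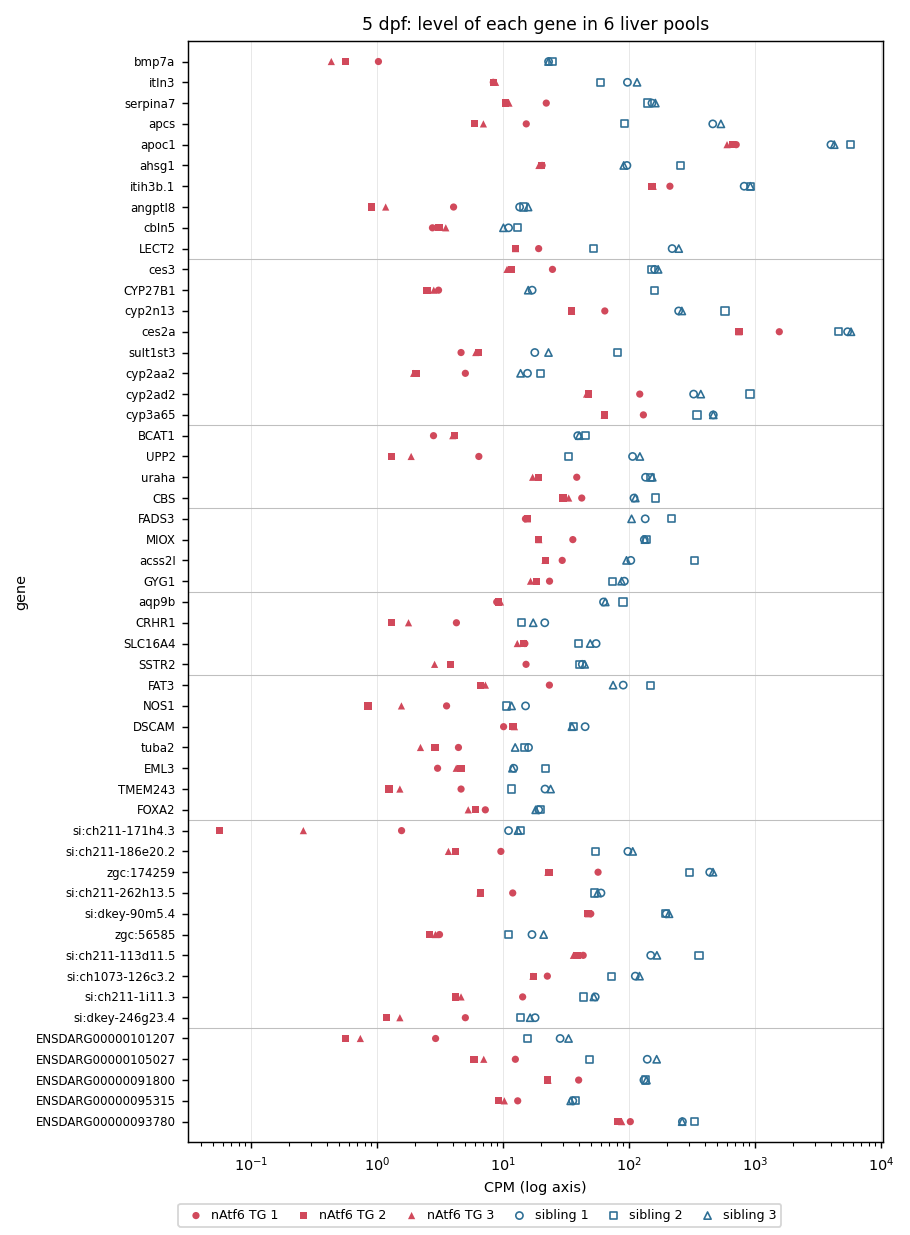
Levels of 52 of the 53 genes in the 6 liver pools of 5 dpf, in CPM on a log axis, 1 gene per line, with filled red symbols for nAtf6 TG and open blue symbols for siblings (circle, square and triangle for libraries 1, 2 and 3). Grey lines separate the groups of genes in the order of the text, from secreted proteins at the top to genes without a symbol at the bottom. The groups do not overlap for any gene, which the choice of the genes fixed, and the square of sibling library 2 stands apart from the circle and triangle for CYP27B1 on the high side and for apcs, LECT2 and UPP2 on the low side.

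Among the secreted proteins the sibling mean was 3.64 to 38.6 times the nAtf6 TG mean, with a median of 8.90. bmp7a, a ligand of the bone morphogenetic protein family, had 1.03, 0.567 and 0.435 CPM in nAtf6 TG livers, against 23.1, 24.9 and 23.0 CPM in siblings. Its highest nAtf6 TG value was 0.0447 of its lowest sibling value, the lowest of the 53 genes on this measure, while its ratio of means was below that of apcs. apcs encodes serum amyloid P component, a pentraxin of plasma. It had 15.3, 5.96 and 7.01 CPM in nAtf6 TG livers and 463, 93.0 and 537 CPM in siblings. Sibling library 2 was well below the other two. It was above every nAtf6 TG library, which the choice of the genes fixed. apoc1, a small apolipoprotein carried on lipoprotein particles, had 711, 664 and 601 CPM in nAtf6 TG livers, against 4013, 5725 and 4261 CPM in siblings, and the spread within each group was small beside the gap.

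serpina7, the gene of thyroxine-binding globulin in mammals, had 22.1, 10.6 and 11.2 CPM in nAtf6 TG livers, against 153, 140 and 162 CPM in siblings. ahsg1 encodes fetuin-A, a plasma glycoprotein. It had 20.5, 20.3 and 19.3 CPM in nAtf6 TG livers and 96.5, 258 and 91.1 CPM in siblings, so that the transgenic libraries were close together and the siblings were not. itih3b.1, a heavy chain of the inter-alpha-trypsin inhibitor family, had 212, 153 and 156 CPM in nAtf6 TG livers, against 822, 919 and 920 CPM in siblings. itln3 is an intelectin, a lectin that binds sugars of microbes. It had 8.40, 8.40 and 8.75 CPM in nAtf6 TG livers and 97.5, 59.6 and 116 CPM in siblings. LECT2, a chemotactic protein secreted by the liver, had 19.2, 12.7 and 12.6 CPM in nAtf6 TG livers, against 220, 52.6 and 249 CPM in siblings, again with sibling library 2 lowest of its group. angptl8 encodes an angiopoietin-like protein that acts on lipoprotein lipase in mammals. It had 4.07, 0.908 and 1.18 CPM in nAtf6 TG livers and 13.6, 14.6 and 15.9 CPM in siblings. cbln5, of the cerebellin family, had 2.76, 3.12 and 3.53 CPM in nAtf6 TG livers, against 11.1, 13.01 and 10.1 CPM in siblings.

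The 8 esterases, P450 enzymes and conjugating enzymes had sibling means 4.97 to 23.0 times the nAtf6 TG means, with a median of 7.29. The carboxylesterases ces2a and ces3 cleave ester bonds of drugs and lipids. ces2a had 1562, 748 and 746 CPM in nAtf6 TG livers, against 5440, 4629 and 5789 CPM in siblings. ces3 had 24.8, 11.7 and 10.8 CPM in nAtf6 TG livers, against 160, 152 and 171 CPM in siblings. The first nAtf6 TG library was 2.09 and 2.20 times the mean of the other transgenic libraries in these genes. 3 cytochrome P450 enzymes of family 2 were in the group, and cyp3a65 of family 3. cyp2n13 had 64.4, 34.9 and 35.1 CPM in nAtf6 TG livers and 248, 580 and 263 CPM in siblings. cyp2ad2 had 122, 47.6 and 46.2 CPM in nAtf6 TG livers and 327, 915 and 372 CPM in siblings. Both were highest in sibling library 2, by 2.27 and 2.62 times the mean of the other siblings. cyp2aa2 had 5.04, 2.04 and 1.96 CPM in nAtf6 TG livers, against 15.7, 19.9 and 13.8 CPM in siblings. cyp3a65, a CYP3A enzyme known from zebrafish liver and intestine, had 130, 64.0 and 63.7 CPM in nAtf6 TG livers, against 467, 348 and 468 CPM in siblings.

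CYP27B1, the hydroxylase that makes the active form of vitamin D and is known mainly from the kidney of mammals, gave the least even sibling values. It had 3.09, 2.50 and 2.83 CPM in nAtf6 TG livers, against 17.1, 160 and 15.9 CPM in siblings. Sibling library 2 was 9.72 times the mean of the other two, and the 23.0-fold ratio of the means became 5.88 without that library. The cytosolic sulfotransferase sult1st3 had 4.66, 6.41 and 6.10 CPM in nAtf6 TG livers and 17.9, 81.0 and 23.0 CPM in siblings, and there too sibling library 2 was the highest.

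The 5 genes of amino acid and nucleoside breakdown, 4 of which are described, had ratios of means from 3.65 to 27.3, with a median of 11.4. BCAT1, an aminotransferase of leucine, isoleucine and valine, had 2.82, 4.14 and 4.01 CPM in nAtf6 TG livers, against 39.3, 45.4 and 40.4 CPM in siblings, an 11.4-fold ratio of the means with little spread in either group. UPP2 encodes a uridine phosphorylase. It had 6.45, 1.31 and 1.87 CPM in nAtf6 TG livers and 107, 33.1 and 122 CPM in siblings, and its ratio of 27.3 became 55.1 without the first nAtf6 TG library. uraha acts in the breakdown of urate after urate oxidase, and had 38.6, 19.1 and 17.2 CPM in nAtf6 TG livers, against 136, 149 and 153 CPM in siblings. CBS, cystathionine beta-synthase, draws homocysteine into the synthesis of cysteine. It had 42.3, 30.1 and 33.3 CPM in nAtf6 TG livers and 110, 163 and 112 CPM in siblings. Another entry of this enzyme, cbsb, went the other way. cbsb had 122, 260 and 272 CPM in nAtf6 TG livers, against 32.1, 33.5 and 32.6 CPM in siblings. The lower level of the CBS entry therefore does not hold for both of these entries, and the enzyme itself was not measured.

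In the metabolism of lipid, acetate, glycogen and inositol the ratios of the means were 4.33 to 9.84. FADS3, named for a fatty acid desaturase, had 15.1, 15.8 and 15.7 CPM in nAtf6 TG livers, against 135, 218 and 105 CPM in siblings. acss2l, an acetyl-CoA synthetase that uses acetate, had 29.6, 21.8 and 21.6 CPM in nAtf6 TG livers, against 104, 333 and 95.8 CPM in siblings, with sibling library 2 at 3.34 times the mean of the other two. GYG1, glycogenin, primes the synthesis of glycogen. It had 23.5, 18.4 and 16.6 CPM in nAtf6 TG livers and 92.1, 73.7 and 87.5 CPM in siblings. MIOX, which opens the ring of inositol, had 35.9, 19.1 and 19.3 CPM in nAtf6 TG livers, against 133, 139 and 134 CPM in siblings, whose values were close together.

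Among channels, transporters and receptors, aqp9b encodes an aquaglyceroporin, a channel for water and glycerol. It had 8.94, 9.25 and 9.58 CPM in nAtf6 TG livers, against 62.9, 89.9 and 65.0 CPM in siblings. SLC16A4, of the monocarboxylate transporter family, had 15.0, 14.6 and 13.02 CPM in nAtf6 TG livers, against 55.0, 39.9 and 49.3 CPM in siblings. Both genes had nearly equal values in the 3 nAtf6 TG libraries. The somatostatin receptor SSTR2 had 15.3, 3.86 and 2.87 CPM in nAtf6 TG livers and 42.7, 40.7 and 44.6 CPM in siblings. CRHR1, a receptor of corticotropin-releasing hormone, had 4.28, 1.31 and 1.79 CPM in nAtf6 TG livers and 21.5, 14.0 and 17.4 CPM in siblings. For these receptors the first nAtf6 TG library was 4.54 and 2.77 times the mean of the other transgenic libraries.

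Of the 7 other named genes, FOXA2 encodes a forkhead transcription factor of the endoderm and the liver. It had 7.26, 6.07 and 5.31 CPM in nAtf6 TG livers, against 19.3, 20.0 and 18.2 CPM in siblings, the smallest ratio of means of all 53 genes. NOS1, DSCAM and FAT3, best known from neurons, encode a nitric oxide synthase, an adhesion molecule and an atypical cadherin. NOS1 had 3.58, 0.851 and 1.57 CPM in nAtf6 TG livers, against 15.1, 10.7 and 11.7 CPM in siblings. DSCAM had 10.1, 12.0 and 12.4 CPM in nAtf6 TG livers, against 45.0, 36.2 and 35.3 CPM in siblings. FAT3 had 23.4, 6.64 and 7.27 CPM in nAtf6 TG livers, against 90.2, 149 and 75.0 CPM in siblings. In NOS1 and FAT3 the first nAtf6 TG library was the highest of its group, and in DSCAM it was the lowest. The alpha tubulin tuba2 had 4.44, 2.89 and 2.22 CPM in nAtf6 TG livers, against 15.99, 14.8 and 12.5 CPM in siblings. EML3, which binds microtubules, had 3.04, 4.65 and 4.27 CPM in nAtf6 TG livers, against 12.2, 21.9 and 11.9 CPM in siblings. TMEM243, a transmembrane protein, had 4.66, 1.25 and 1.52 CPM in nAtf6 TG livers, against 21.6, 11.7 and 23.9 CPM in siblings.

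The 10 genes known by clone names had ratios of means from 4.16 to 20.2, and the 5 without a symbol from 3.17 to 18.3. zgc:174259 had 57.0, 23.2 and 22.8 CPM in nAtf6 TG livers, against 438, 302 and 465 CPM in siblings. si:ch211-171h4.3 had 1.57, 0.0567 and 0.261 CPM in nAtf6 TG livers, against 11.1, 13.9 and 13.2 CPM in siblings, and the value in the second library was a single count. Its 20.2-fold ratio became 80.0 without the first nAtf6 TG library. ENSDARG00000093780 had 103, 82.1 and 87.8 CPM in nAtf6 TG livers, against 266, 333 and 265 CPM in siblings. No function can be given for these genes from the names.

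Some of the genes are neighbours. In the gene order of the RefSeq annotation of GRCz12tu, in which 37 of the 53 were found once, 3 pairs had no protein-coding gene between them. These were ces2a and ces3 on chromosome 18, serpina7 and zgc:174259 on chromosome 5, and apcs and si:ch1073-126c3.2 on chromosome 13. cyp2ad2 and cyp2n13 on chromosome 20 had 1 gene between them. Related genes such as the carboxylesterase pair and the P450 pair may share reads, and their counts are uncertain to that extent.

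Genes just inside the limit were CBS, ENSDARG00000093780, EML3, TMEM243 and FOXA2, whose highest nAtf6 TG level was 0.385, 0.388, 0.391, 0.398 and 0.398 of the lowest sibling level. Just outside stood si:dkey-166k9.2 at 0.404, selenop2 at 0.407, RCAN2 at 0.408, zgc:195173 at 0.410 and C20H6orf58 at 0.410. The limit thus fell within a run of genes with nearly equal ratios.

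Levels within each 5 dpf group were also described, with the 5397 genes of at least 10 CPM in each sibling library as background. The first nAtf6 TG library was the highest of its group for 45 of the 53 genes, against 42.1% of the background genes. It exceeded the mean of the other two by more than 1.5 times for 30 of the 53, against 10.3% of the background. The ratio ran from 0.680 for EML3 to 9.89 for si:ch211-171h4.3, with a median of 1.81. Leaving this library out moved the ratio of means by more than 1.5 times for 13 of the 53 genes. The choice of the genes used the highest nAtf6 TG level, which was mostly that of this library, and 191 genes met the limits without it, so nothing is read from these counts. This library also had the lowest atf6 level of the transgenics, 447 CPM against 559 and 552, and the highest summed markers of exocrine pancreas, 2035 CPM against 1215 and 1190. The part of either in the levels of the 53 genes was not tested.

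Sibling library 2 was above the other siblings for 22 of the 53 genes, against 21.7% of the background genes, and below both for 25, against 66.9%. It exceeded the mean of the other two by more than 1.5 times for 10 genes, against 5.02% of the background. These were CYP27B1, sult1st3, acss2l, ahsg1, cyp2ad2, si:ch211-113d11.5, cyp2n13, FADS3, EML3 and FAT3. It was lower than that mean by more than 1.5 times for 10 others (background 18.1%), among them apcs at 0.186, LECT2 at 0.224 and UPP2 at 0.289 of the mean. Without this library the ratio of means moved by more than 1.5 times for 5 genes, CYP27B1, ahsg1, acss2l, sult1st3 and cyp2ad2. The choice divided by the lowest sibling level and so left out genes that were low in this library, and 251 genes met the limits without it. These counts are therefore partly fixed by the choice and are given as a description. The summed hepatocyte markers were highest in this sibling library, 165700 CPM against 136500 and 151400. Most of that sum was apoa1b, tfa and apoa2, at 59100, 36640 and 35770 CPM. c3a.1, RBP4, fga, FGB, FGG, CP and CPS1 of the same list were instead lowest there. RBP4, for example, had 4126 CPM, against 8005 and 9263. The summed markers of exocrine pancreas were lowest in this library, 1568 CPM against 4969 and 5498. The part of these markers in the order of the siblings was not tested.

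No marker of pancreas or intestine whose name matched an identifier was among the 53 genes. Names matched for 23 of 31 markers of exocrine pancreas, 7 of 10 of endocrine pancreas and 14 of 21 of intestine. The unmatched names could not be looked up. The choice used the lowest sibling level, and sibling library 2 was the lowest sibling in the summed markers of exocrine pancreas and intestine. Their absence was thus partly fixed by the choice, and nothing is read from it. Of 25 identifiers for exocrine pancreas, 16 reached 10 CPM in each sibling library, and of 16 for intestine, 4 did. The summed exocrine markers were 2035, 1215 and 1190 CPM in nAtf6 TG livers and 4969, 1568 and 5498 CPM in siblings, so that the groups overlapped. The summed intestine markers overlapped too, with 320, 207 and 198 CPM in nAtf6 TG livers and 972, 196 and 1048 CPM in siblings. The edgeR quasi-likelihood test over 18470 genes, with Benjamini-Hochberg adjustment, called 10 of 22 exocrine markers tested lower in nAtf6 TG livers and none higher, and 2 of 15 intestine markers lower, against 7.48% lower over all genes tested. The median log2 fold change was -1.40 for the exocrine and -0.77 for the intestine markers. The 2 intestine markers were the chitinases chia.1 and chia.2. chia.2 had 51.4, 32.1 and 30.8 CPM in nAtf6 TG livers, against 434, 26.2 and 462 CPM in siblings, and sibling library 2 lay below all transgenic values. Of 19 hepatocyte markers, 18 reached 10 CPM in each sibling library and only ahsg1 was among the 53 genes. The summed hepatocyte markers were 102500, 92000 and 95400 CPM in nAtf6 TG livers, against 136500, 165700 and 151400 CPM in siblings, without overlap. The test called 5 of the 18 tested lower and none higher, with a median log2 fold change of -0.70. ahsg1 was among the 5 through its choice. The summed biliary markers ran the other way, with 1219, 2399 and 2452 CPM in nAtf6 TG livers, against 826, 744 and 921 CPM in siblings. Of 4 tested, 2 were called higher and none lower, against 13.7% higher over all genes tested. Almost all of this sum was ANXA4, krt18a.1 and krt8. CFTR had 1.08, 0.908 and 1.18 CPM in nAtf6 TG livers, against 3.83, 0.538 and 4.32 CPM in siblings. vtcn1 was at 0.114 CPM or less in nAtf6 TG livers, against 1.64, 0.0449 and 2.28 CPM in siblings. The part of these cell types in the levels of the 53 genes was not tested.

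**Figure D2:**
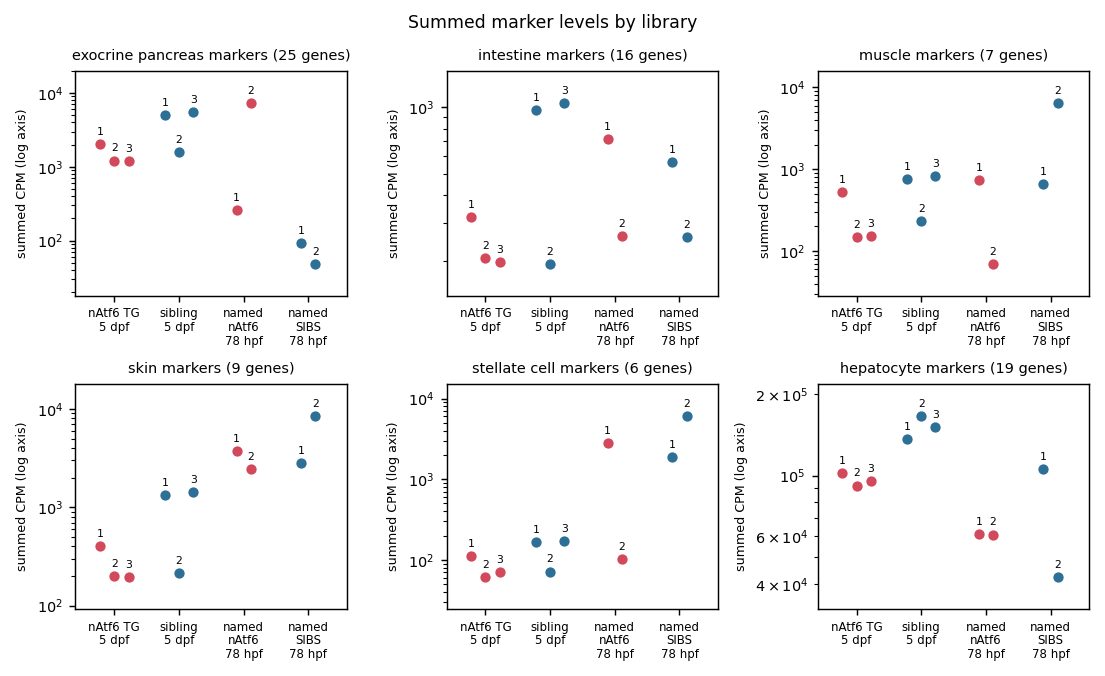
Summed CPM of the markers of 6 cell types in each of the 10 libraries, on log axes, with the number of the library or clutch above its point. Red points are nAtf6 TG at 5 dpf and libraries named nAtf6 (titled sibling) at 78 hpf, and blue points are siblings at 5 dpf and libraries named SIBS (titled transgenic) at 78 hpf. Exocrine pancreas markers reach 7353 CPM in the library named nAtf6 of clutch 2, muscle markers reach 6484 CPM in the library named SIBS of clutch 2, and sibling library 2 of 5 dpf is the lowest sibling in every panel but the hepatocyte one.

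The other genes of the same pathways were read from lists of names. The test called 1382 of 18470 genes lower in nAtf6 TG livers (7.48%) and 2531 higher (13.7%). All 53 genes were called lower, which follows from their choice, and 52 were in DESeq2. The count was 42 without the second nAtf6 TG library and 44 without the third. In the list of cytochrome P450 genes, 17 of 37 tested were called lower, 4 of them among the 53, and 2 were called higher, CYP2U1 and cyp3c4. The median log2 fold change of this list was -1.11, against -0.04 over all genes tested. Other genes of family 2 called lower included cyp2p7 with a log2 fold change of -1.45 (adjusted p = 0.00321, edgeR) and cyp2x7 with -1.27 (adjusted p = 0.00409, edgeR). Of 30 conjugation enzymes tested, 10 were called lower and none higher, sult1st3 among them.

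In urate and purine breakdown 3 of 7 were called lower, with uraha at -2.64, XDH at -0.90 and uox at -0.84. Of 25 plasma carriers, protease inhibitors and hepatokines tested, 10 were called lower, with ahsg1 and serpina7 of the 53 genes among them, and 1 higher. Of 30 complement genes, 11 were called lower and none higher, and no complement gene was among the 53. Of 21 liver transcription factors, FOXA2 and hnf4b were called lower and 5 were called higher, foxa3 and CEBPA among them. Of lipoprotein and lipase genes, 4 of 24 were called lower, with apoc1 of the 53 genes among them. apoa1a, an apolipoprotein of high-density lipoprotein, was called higher. The genes of the 53 in these counts were called lower through their choice. The median log2 fold changes were -0.56 in urate and purine breakdown, -0.80 for the carriers, -0.49 for complement, -0.42 for lipoproteins and -0.19 for the transcription factors, beside -0.04 over all genes tested. No gene of these lists was called at 78 hpf, and 11 of the 53 genes stood in any of the 28 lists.

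At 78 hpf the question was whether the same genes were also low when atf6 was high. In both libraries named nAtf6 (titled sibling) the level was below both libraries named SIBS (titled transgenic) for 29 of the 53 genes, against 17.4% of the 14555 genes tested at this age. Among the 47 of them with enough counts to be tested, this order was seen for 24. The opposite order was seen for 0 of the 53, against 19.5% of the genes tested. Summed, they made up 0.178% and 0.168% of all counts in libraries named nAtf6, against 0.595% and 0.205% in those named SIBS. The library named SIBS of clutch 1 was the highest of the 4 libraries for 46 of the 53 genes (background 16%). It was above both libraries named nAtf6 for 50 (background 28.5%). Of the 19 hepatocyte markers, all but HNF4A and CPS1 were also highest in that library. fga, for example, had 2234 CPM there, against 1804 and 1899 CPM in the libraries named nAtf6 and 1091 CPM in the other named SIBS. This order was thus not particular to the 53 genes. The library named SIBS of clutch 2 was above both for 30 of the 53 (background 46.4%) and below both for 15 (background 30.5%).

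**Figure D3:**
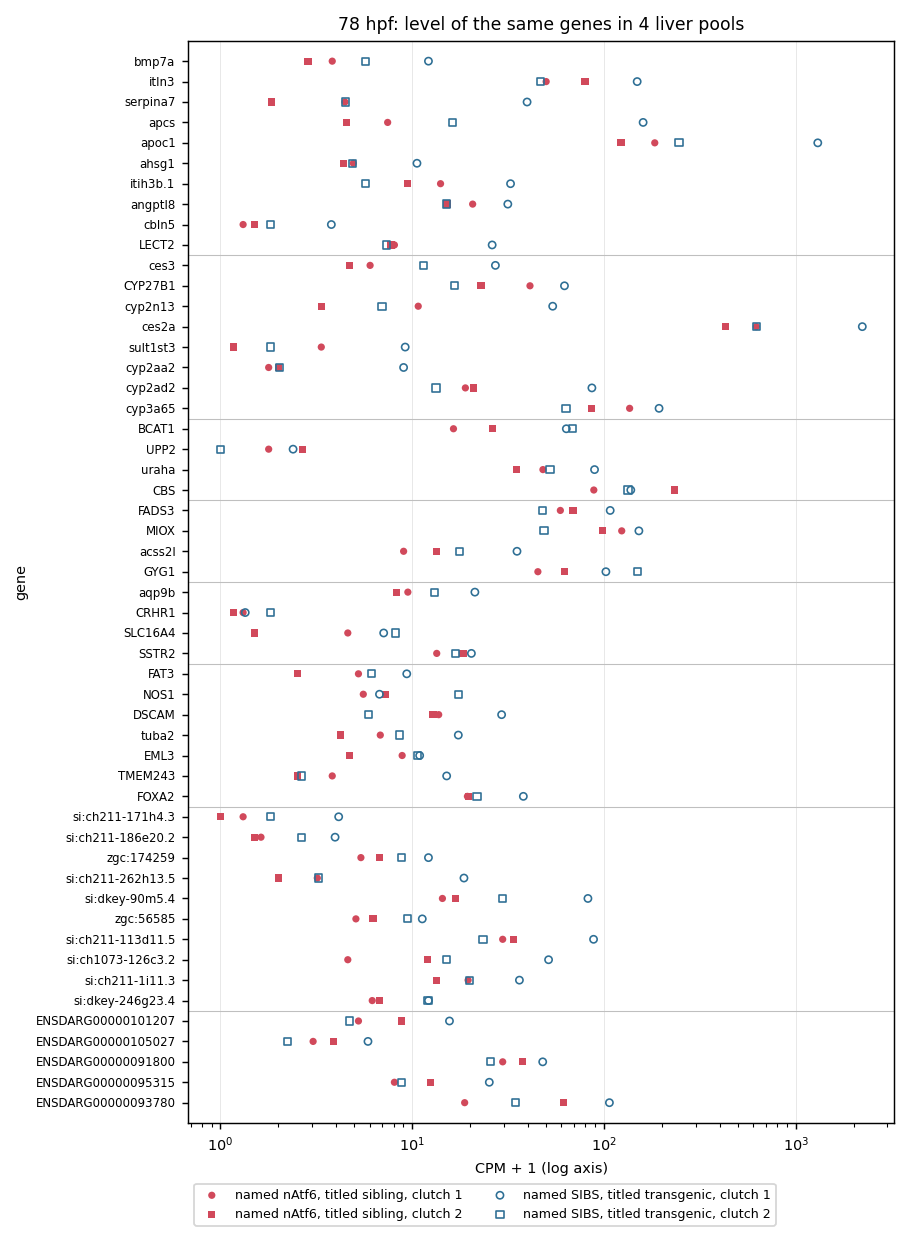
Levels of the same 52 genes in the 4 liver pools of 78 hpf, as CPM + 1 on a log axis, in the same order of genes, with filled red symbols for libraries named nAtf6 (titled sibling) and open blue symbols for libraries named SIBS (titled transgenic). Circles are clutch 1 and squares clutch 2, and the open circle is the rightmost symbol for 45 of the 52 genes.

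In the edgeR quasi-likelihood test none of the 14555 genes passed a Benjamini-Hochberg adjusted p of 0.05 at 78 hpf, and so none of the 47. At an unadjusted p under 0.05, 869 genes were counted, and 376 of these were lower in the libraries named nAtf6 (2.58%). 9 of the 47 were among them, all lower. DESeq2 called 188 genes, 14 of them lower (0.0962%), and 3 of those were among the 53 genes, including apcs and BCAT1. The fitted log2 fold change, named nAtf6 minus named SIBS, was below 0 for 45 of the 47 (52.1% of all genes tested), and its median was -0.998, against -0.02 over all genes tested. Without the library named SIBS of clutch 1, the median was -0.05 and 25 of 48 were below 0. Over all genes tested in that fit the median was 0.04 and 47.6% were below 0. Without the library named SIBS of clutch 2 the median was -1.54, against 0.03 over all genes tested. 6 genes were not tested for low counts, among them UPP2, CRHR1, cbln5 and cyp2aa2.

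**Figure D4:**
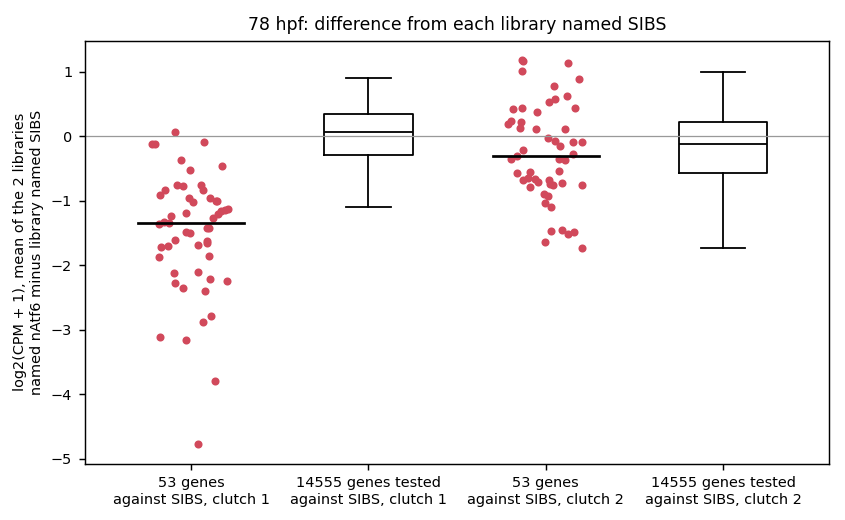
Difference in log2(CPM + 1) between the mean of the 2 libraries named nAtf6 (titled sibling) and each library named SIBS (titled transgenic), with 1 red point per gene for the 53 genes and a black line at their median. Boxes show all 14555 genes tested, with the quartiles and whiskers at the 5th and 95th percentiles. The median of the 53 genes was -1.34 against clutch 1 and -0.30 against clutch 2, and that of all genes tested was 0.07 and -0.12.

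BCAT1 and GYG1 were lower in both libraries named nAtf6 of 78 hpf in either clutch. BCAT1 had 15.4 and 25.2 CPM in the libraries named nAtf6, against 62.6 and 67.8 CPM in those named SIBS, a log2 fold change of -1.66 with a standard error of 0.34 (adjusted p = 0.510, edgeR). The groups did not overlap, and both clutches showed the difference. In DESeq2 the adjusted p of BCAT1 was 0.0188, and over the other alternatives tried it was 0.170 to 1.00. GYG1 had 44.2 and 61.1 CPM in the libraries named nAtf6, against 101 and 148 CPM in those named SIBS, a log2 fold change of -1.21 with a standard error of 0.30 (adjusted p = 0.697, edgeR).

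Among the secreted proteins, 5 of 10 were lower in both libraries named nAtf6, against 17.4% of all genes tested. apcs had 6.45 and 3.55 CPM in the libraries named nAtf6, against 159 and 15.2 CPM in those named SIBS. Its log2 fold change of -4.18 was the lowest of the genes tested here, with a standard error of 1.3 (adjusted p = 0.805, edgeR). In DESeq2 its adjusted p was 0.00555, and over the other alternatives it was 0.207 to 1.00. The value depended on clutch 1 and was -1.45 without the library named SIBS of that clutch. serpina7 had 3.46 and 0.846 CPM in the libraries named nAtf6, against 38.7 and 3.49 CPM in those named SIBS, so that the lower library named SIBS was level with the higher library named nAtf6. apoc1 had 183 and 121.5 CPM in the libraries named nAtf6, against 1300 and 245 CPM in those named SIBS, a log2 fold change of -2.40 with a standard error of 0.90. bmp7a had 2.83 and 1.86 CPM in the libraries named nAtf6, against 11.2 and 4.72 CPM in those named SIBS. cbln5 was also lower in both, at 3 counts or fewer in each library named nAtf6.

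The other secreted proteins overlapped between the groups. itln3 had 48.9 and 78.7 CPM in the libraries named nAtf6, against 148 and 45.8 CPM in those named SIBS. itih3b.1 had 13.1 and 8.46 CPM in the libraries named nAtf6, against 31.6 and 4.72 CPM in those named SIBS. LECT2 and ahsg1 showed the same arrangement, with clutch 1 of the libraries named SIBS highest and clutch 2 level with the libraries named nAtf6. angptl8 had 19.7 and 14.2 CPM in the libraries named nAtf6 and 30.5 and 14.2 CPM in those named SIBS.

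Of the esterases, P450 and conjugating enzymes, ces2a, ces3 and cyp2aa2 were lower in both libraries named nAtf6. ces2a had 621 and 430 CPM in the libraries named nAtf6, against 2219 and 625 CPM in those named SIBS. ces3 had 5.04 and 3.72 CPM in the libraries named nAtf6, against 26.2 and 10.5 CPM in those named SIBS, a log2 fold change of -2.09 with a standard error of 0.59 (adjusted p = 0.774, edgeR). For cyp2aa2 clutch 2 was at 1.02 and 1.03 CPM in the 2 groups, so the order there is within counting error. cyp2n13 had 9.76 and 2.37 CPM in the libraries named nAtf6, against 53.02 and 5.96 CPM in those named SIBS, and its log2 fold change of -2.35 became 0.16 without the library named SIBS of clutch 1. cyp2ad2 and cyp3a65 were lowest of the 4 libraries in clutch 2 of those named SIBS. cyp3a65 had 135 and 85.4 CPM in the libraries named nAtf6, against 193 and 62.4 CPM in those named SIBS. CYP27B1 had 40.1 and 21.8 CPM in the libraries named nAtf6, against 61.2 and 15.6 CPM in those named SIBS.

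In the remaining metabolic genes, uraha had 47.1 and 33.8 CPM in the libraries named nAtf6, against 88.3 and 51.4 CPM in those named SIBS, without overlap. acss2l had 8.03 and 12.4 CPM in the libraries named nAtf6, against 34.2 and 16.6 CPM in those named SIBS, also without overlap. Different values were found for CBS and MIOX, the only genes of the 47 with a fitted log2 fold change above 0. CBS had 87.5 and 233 CPM in the libraries named nAtf6, against 137 and 132 CPM in those named SIBS, a log2 fold change of 0.28 with a standard error of 0.54. MIOX had 123 and 97.6 CPM in the libraries named nAtf6, against 151 and 47.7 CPM in those named SIBS. Both directions turned when single libraries were left out. FADS3 overlapped, with 58.2 and 67.8 CPM in the libraries named nAtf6, against 107 and 46.8 CPM in those named SIBS.

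Among channels and receptors, aqp9b had 8.50 and 7.27 CPM in the libraries named nAtf6, against 20.2 and 12.1 CPM in those named SIBS. SLC16A4 had 3.62 and 0.508 CPM in the libraries named nAtf6, against 6.10 and 7.19 CPM in those named SIBS, and was among 5 genes highest in clutch 2 of those named SIBS, with BCAT1, GYG1, NOS1 and CRHR1. CRHR1 had at most 4 counts in any library, too few to compare. SSTR2 was nearly equal throughout, with 12.4 and 17.4 CPM in the libraries named nAtf6 and 19.4 and 15.8 CPM in those named SIBS. FOXA2 had 18.4 and 18.6 CPM in the libraries named nAtf6, against 37.0 and 20.8 CPM in those named SIBS, so that clutch 2 differed little. UPP2 had 0.787 and 1.69 CPM in the libraries named nAtf6, against 1.4 CPM and 0 counts in those named SIBS, where a count of 0 allows up to 0.616 CPM. si:ch211-171h4.3 had 0 counts in the library named nAtf6 of clutch 2, which allows up to 0.508 CPM, and 3.14 and 0.822 CPM in the libraries named SIBS.

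Of the 10 genes with clone names, 9 were lower in both libraries named nAtf6, and of the 5 without a symbol none was, against 17.4% of the genes tested. The 9 include si:ch211-171h4.3, which was not tested for low counts, with 2 and 0 counts against 18 and 4 in the libraries named SIBS. Another of the 9 was not tested either, with 4 and 3 counts against 17 and 8. The groups of 10 and 5 genes are small, and nothing is read from the contrast between them. si:ch211-262h13.5, at 12.0, 6.70 and 6.58 CPM in nAtf6 TG livers and 60.06, 53.5 and 56.5 CPM in siblings at 5 dpf, had 2.20 and 1.02 CPM in the libraries named nAtf6, against 17.6 and 2.26 CPM in those named SIBS. si:dkey-90m5.4 had 13.4 and 15.9 CPM in the libraries named nAtf6, against 81.5 and 28.6 CPM in those named SIBS. si:dkey-246g23.4 had 5.19 and 5.75 CPM in the libraries named nAtf6, against 11.2 and 11.1 CPM in those named SIBS, much the same in both clutches. By contrast, 34 of the 53 were at least 2 times higher in clutch 1 of those libraries than in clutch 2 (7.34% of the genes tested).

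Markers of other cells moved with the libraries of 78 hpf. The summed hepatocyte markers were 61060 and 60730 CPM in the libraries named nAtf6, against 106200 and 42410 CPM in those named SIBS, and so were highest in the library where most of the 53 genes were highest. Muscle markers were at 739 and 70.4 CPM in the libraries named nAtf6 and at 662 and 6484 CPM in those named SIBS. Summed skin and stellate cell markers were highest in the same library of clutch 2. Most of that stellate sum was col1a1a, at 5421 of 6060 CPM. acta2 of the stellate list was instead lowest in that library, at 12.5 CPM, against 1105 CPM in the library named SIBS of clutch 1. The skin markers icn and krt91 were also highest in that library of clutch 1. When each level was divided by the summed hepatocyte markers of its library (18 markers, without ahsg1), 27 of the 53 genes were below in both libraries named nAtf6, against 3.2% of the genes tested. For every gene, the division lowered the library named SIBS of clutch 1 against the libraries named nAtf6, and raised that of clutch 2 against them. The share over all genes thereby fell from 17.4% to 3.2%, so nothing is read from the wider gap to the 53 genes. At 5 dpf the same division lowered every sibling library against every nAtf6 TG library. It could only remove genes from those that met the limits, so nothing is read from which genes remained. In this scaling, chosen after the data were seen, 19 genes met the 5 dpf limits, all of them among the 53 as the division fixed. They included bmp7a, itln3, serpina7, apcs, apoc1, ahsg1, itih3b.1, ces3, CYP27B1, cyp2n13, BCAT1, UPP2, FADS3, aqp9b and 4 genes with clone names. Exocrine pancreas markers were at 260 and 7353 CPM in the libraries named nAtf6, against 94.2 and 48.9 CPM in those named SIBS. Of the 53 genes only UPP2, at 10 counts, and CBS were highest in the library with 7353 CPM, against 24.8% of the genes tested. That library is named nAtf6 and the 53 genes were chosen as low in nAtf6 TG livers, so nothing is read from this count. A pancreas origin of these genes was not tested.

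The levels at the 2 ages were set side by side without a test, since the age, the cross and the library preparation changed together and cannot be told apart. The lowest sibling library of 5 dpf was above both libraries named SIBS (titled transgenic) of 78 hpf for 40 of the 53 genes (12.0% of the genes tested at 78 hpf), and the highest was below both for 3 (58.1%). The 53 genes were chosen for a sibling level of at least 10 CPM at 5 dpf and the other genes were not, so these counts are partly fixed by the choice and nothing is read from them. apcs was at 93.0 to 537 CPM in siblings at 5 dpf, against 159 and 15.2 CPM in libraries named SIBS at 78 hpf. itih3b.1 was at 822 to 920 CPM in siblings at 5 dpf, against 31.6 and 4.72 CPM in libraries named SIBS at 78 hpf. UPP2 was at 33.1 to 122 CPM and CRHR1 at 14.0 to 21.5 CPM in siblings at 5 dpf, and both were at or below 1.4 CPM in the libraries named SIBS at 78 hpf. BCAT1, in contrast, was at 39.3 to 45.4 CPM in siblings at 5 dpf, against 62.6 and 67.8 CPM in libraries named SIBS at 78 hpf.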

How the data were processed

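Zebrafish liver RNA was measured in 10 pooled libraries. The authors deposited raw, unnormalized counts for each Ensembl identifier; the submitters' processing notes name GRCz10, HTSeq, DESeq2, FastQC 0.11.5, Trimmomatic, TopHat2 2.1.0, CASAVA and MultiQC 1.7, and the annotation release is not given in the sources used here. The special entries of the 78 hpf tables, which name no gene, held 35.3% to 47.4% of the reads and were left out. Groups of 5 dpf follow the titles; those of 78 hpf are given by title and by deposited name. Symbols came from a name table that covers 26269 of 32105 identifiers. Counts were tested per age with edgeR 4.0.16 in R 4.3.3 (filterByExpr, TMM, quasi-likelihood test, Benjamini-Hochberg, threshold 0.05), in the direction nAtf6 TG minus sibling and named nAtf6 minus named SIBS; DESeq2 1.42.0 was an alternative, with other scalings, filters, a replicate block and each library left out. The test was run on simulated data with 200 changed genes. All simulated libraries varied alike, so a library that stands apart, as at 5 dpf, was not covered by this check. A floor of 3 counts was 0.131 to 0.170 CPM at 5 dpf and 0.472 to 0.616 CPM at 78 hpf, for counting error only.

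The members and the gene lists were chosen with earlier results of these data known. Genes described are those in a list, the 20 with the lowest ratio, the 10 with the highest sibling mean, the 5 on either side of the limit, the 5 with the lowest and the 5 with the highest log2 fold change at 78 hpf, and atf6; the other members were added after their values were seen. The clutch number in the titles pairs the 78 hpf libraries; libraries of the same clutch correlated at -0.126 after subtraction of the group means. No sequence was used here. 1 member is counted among the 53 but is not reported here by name, and 1 gene list is not reported here.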

Additional observations from a re-analysis of the deposited data

How the results depend on the processing

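The number of genes meeting the 5 dpf limits depended on them: 27 at a ratio of 0.3, 103 at 0.5 and 19 when levels were scaled to hepatocyte markers, against 53. TMM-scaled levels gave 67, of which 45 were among the 53. Leaving out 1 library of 5 dpf gave 53 to 251 genes, with 191 without the first nAtf6 TG library and 251 without sibling library 2. Genes called at 5 dpf numbered 3913, and 1361 to 7598 with 1 library left out, the highest without sibling library 2. Of the 53 genes, DESeq2 called 52, and the test without 1 library called 42 to 53, with 42 without the second nAtf6 TG library, 44 without the third and 51 without the first. Over all genes tested, 233 of 20077 were called lower without the second, 266 of 19882 without the third and 2270 of 20181 without the first. The 53 genes were chosen on these same libraries, so nothing is read from how many of them were called.

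At 78 hpf none of the 53 was called in any alternative except DESeq2, which called 3. Their median log2 fold change ran from -1.54 to -0.0489 with 1 library left out, against -0.06 to 0.04 over all genes tested. The count lower in both libraries named nAtf6 was 24 with TMM-scaled levels (19.2% of the genes tested) and 30 to 50 with 1 library left out (24.3% to 46.4% of the genes tested). The 30 came without the library named SIBS of clutch 1 (46.4%) and the 50 without that of clutch 2 (28.5%). With 1 library left out, the log2 fold change changed sign for 6 of 15 genes, with ranges of -3.64 to 0.16 for cyp2n13, -0.89 to 0.97 for cyp3a65, -0.53 to 0.0853 for SSTR2, -0.60 to 0.57 for ENSDARG00000091800, -0.54 to 1.37 for MIOX and -0.64 to 0.85 for CBS. In such fits the lone library of a group is assumed to vary like the others.

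A replicate block by the title numbers gave 3128 genes called at 5 dpf, all 53 among them, where the numbers are not stated to pair the libraries and same-numbered libraries correlated at 0.140, 0.124 and -0.114. At 78 hpf the replicate block called 0 of the 53 with a median of -0.88, and the clutch numbers crossed, an alternative added after the data were seen, also gave 0 and -0.88. Depth at 78 hpf limits the genes of a few counts per library, CRHR1 and UPP2 among them.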
